A study of Homo sapiens with 19 samples.

Results

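Nucleus and cytoplasm were compared in K562, an established human erythroleukaemia cell line that carries the BCR-ABL1 fusion and expresses foetal globins. The comparison rests on 8 of the 19 libraries of the series, chosen by their labels alone: 4 labelled nucleus and 4 labelled cytoplasm, numbered 1 to 4 in each group. All cells were untreated, and 8 whole-cell and nuclear wash libraries enter only through the shared filter, scaling and estimate of spread. Both groups received synthetic yeast RNA spike-ins and were prepared the same way: extraction with Trizol LS, depletion of ribosomal RNA, and stranded total RNA libraries from 1 µg of RNA. Total RNA libraries keep transcripts without a poly(A) tail and transcripts that are still unspliced. The labels give no clone, no separate culture for each number and no purity of a fraction, so the p-values measure only the spread between these libraries. Because the same mass of RNA went into each library, more RNA per cell cannot be told apart from less of everything else. A higher exon value is a larger part of the exon counts of a fraction after scaling between libraries, not of all its RNA.

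A gene is copied in the nucleus as a precursor RNA whose introns are removed by the spliceosome, largely while the gene is still being transcribed. Mature mRNA is then exported through the nuclear pores and translated in the cytoplasm, while some long noncoding RNAs stay at their gene or in nuclear bodies such as speckles and paraspeckles, and some mRNAs with slowly removed (detained) introns wait in the nucleoplasm. Exon reads therefore come from precursor and mature RNA alike, and intron reads mostly from precursors.

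The cytoplasm libraries held 5561300 to 7955415 exon counts and the nucleus libraries 1373755 to 2643131, a lower depth that leaves the low nuclear values less precise. Counts over whole gene bodies overlapped more, with 6339070 to 9044614 in the cytoplasm and 4294711 to 8380897 in the nucleus. Yeast spike-ins made up 0.405% to 0.457% of the exon table in the cytoplasm and 0.972% to 1.04% in the nucleus. That table leaves out intronic counts, the larger part of nuclear gene-body counts, so these are not percentages of all counts. Erythroid and K562 markers were present in both fractions, with all 12 listed genes tested. The lists of lymphoid, monocyte and granulocyte, epithelial, and fibroblast and endothelial markers had 5 of 10, 3 of 10, 2 of 7 and 2 of 10 genes at 0 in all 8 libraries. Other members of these lists were measured: 3, 1, 4 and 4 genes passed the filter, and the summed level in the cytoplasm was 53.7 to 101 CPM, 13.2 to 27.6 CPM, 716 to 883 CPM and 229 to 302 CPM. In the nucleus it was 132 to 166 CPM, 7.14 to 11.97 CPM, 178 to 187 CPM and 117 to 129 CPM. Their part in the results was not tested. Column names begin with 1 for libraries 1 and 2 and with 2 for libraries 3 and 4. The letter that follows is the same in same-numbered nucleus and cytoplasm libraries. What the leading digit, here called the prefix, stands for is not given in the sources used here. Folds were therefore also computed within each prefix.

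MALAT1, an RNA found in nuclear speckles, and NEAT1, the scaffold RNA of paraspeckles, are shown first, with a short stretch at their 3′ ends. In both, the end is cut by the tRNA-processing enzyme RNase P, and an A-rich tract is known to fold back onto U-rich runs and protect the end without a poly(A) tail. The stretches below are 100 bases of the GENCODE 29 transcripts, written 5′ to 3′ with T for U, with the U-rich runs (3 or more T, then 1 or 2 bases of C or G, then 3 or more T) and the closing A-rich run in capitals.
MALAT1: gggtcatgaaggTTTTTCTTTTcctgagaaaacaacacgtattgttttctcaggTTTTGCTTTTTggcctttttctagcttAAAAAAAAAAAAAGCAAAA
NEAT1: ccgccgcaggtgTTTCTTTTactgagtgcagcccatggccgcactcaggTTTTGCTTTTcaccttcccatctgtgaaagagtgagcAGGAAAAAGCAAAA
The MALAT1 stretch ran from base 8256 to base 8355 of a transcript of 8708 bases, and the NEAT1 stretch from base 22644 to base 22743, the last base of its transcript. Of 28478 annotated long noncoding transcripts, 303 held a run of 4 or more A followed by GCAAAA, and 2 of these also held at least 2 U-rich runs in the 100 bases up to its end. Those 2 were the transcripts shown. The pattern follows their known ends, so their match was fixed in advance and is only a description of the letters.

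Counts of both RNAs were far higher in the nucleus. MALAT1 (chromosome 11, 65497688 to 65506516, plus strand, GRCh38) had 65816, 69762, 49762 and 52211 exon CPM (counts over library size, scaled by TMM) in nucleus libraries 1 to 4. In the cytoplasm it had 3371, 3313, 2532 and 3373 CPM, so the groups were far apart. Its log2 fold change, nucleus against cytoplasm, was 4.24 ± 0.369 (SE) with an adjusted p of 1.4e-09 in edgeR's quasi-likelihood test. MALAT1 alone took 7.84% ± 0.880 (SD, n = 4) of exon counts in the nucleus and 0.275% ± 0.0367 (n = 4) in the cytoplasm (exact permutation test, two-sided, p = 0.0286, the smallest that 4 against 4 libraries allow). NEAT1 (chromosome 11, 65422774 to 65445540, plus strand) had 1400 to 1679 CPM in the nucleus and 199 to 219 CPM in the cytoplasm, a log2 fold change of 2.88 ± 0.132. Both spans overlap other annotated genes.

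The other RNAs of this kind split by their known location. Among 25 rows listed as nuclear long noncoding RNAs, 21 passed the filter on low counts, 15 were higher in the nucleus and 1, OIP5-AS1, was lower (-0.33 ± 0.128). Over all genes tested, 39.3% were higher and 37.5% were lower at an adjusted p under 0.05 (edgeR). The median log2 fold change of the list was 1.78, beside 0.02 over all genes tested. KCNQ1OT1, an antisense transcript that silences its imprinted neighbours, had 647, 656, 369 and 359 CPM in the nucleus and 21.1, 17.1, 13.8 and 13.5 CPM in the cytoplasm, a log2 fold change of 4.96 ± 0.288, though it lies within the span of KCNQ1. FTX, from the X-inactivation centre, had 54.7 to 62.9 CPM and 3.22 to 4.35 CPM, a log2 fold change of 3.95 ± 0.157, with other annotated genes in its span. FTX, NORAD, CLK1, CLK4, LUC7L, RPLP0, RPS3A, RPL32, SNRPGP10 and H2BC21 are named here after their values were seen.

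Noncoding RNAs known from the cytoplasm went the other way. Of 18 rows listed, 10 were tested, 8 were lower in the nucleus and 1 was higher, with a median of -3.16. RN7SL2, an RNA of the signal recognition particle, had 34.2 to 58.8 CPM in the nucleus and 1320 to 2397 CPM in the cytoplasm (log2 fold change -5.32 ± 0.346). Its near-identical copies share reads with it, so the gene of origin is uncertain. RNY3, a Y RNA bound by the Ro protein, had 0.446, 0.342, 1.62 and 0 CPM in the nucleus and 10.5, 7.27, 41.4 and 37.1 CPM in the cytoplasm. Its cytoplasmic values were higher in libraries 3 and 4, and within the prefixes its log2 fold change was -4.40 and -5.18. NORAD, a cytoplasmic RNA that binds PUMILIO proteins, had 99.0 to 145 CPM in the nucleus and 550 to 800 CPM in the cytoplasm, a log2 fold change of -2.43 ± 0.155. MIR22HG was the exception, at 17 to 29.7 CPM in the nucleus and 2.63 to 4.13 CPM in the cytoplasm (2.61 ± 0.252).

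**Figure D1:**
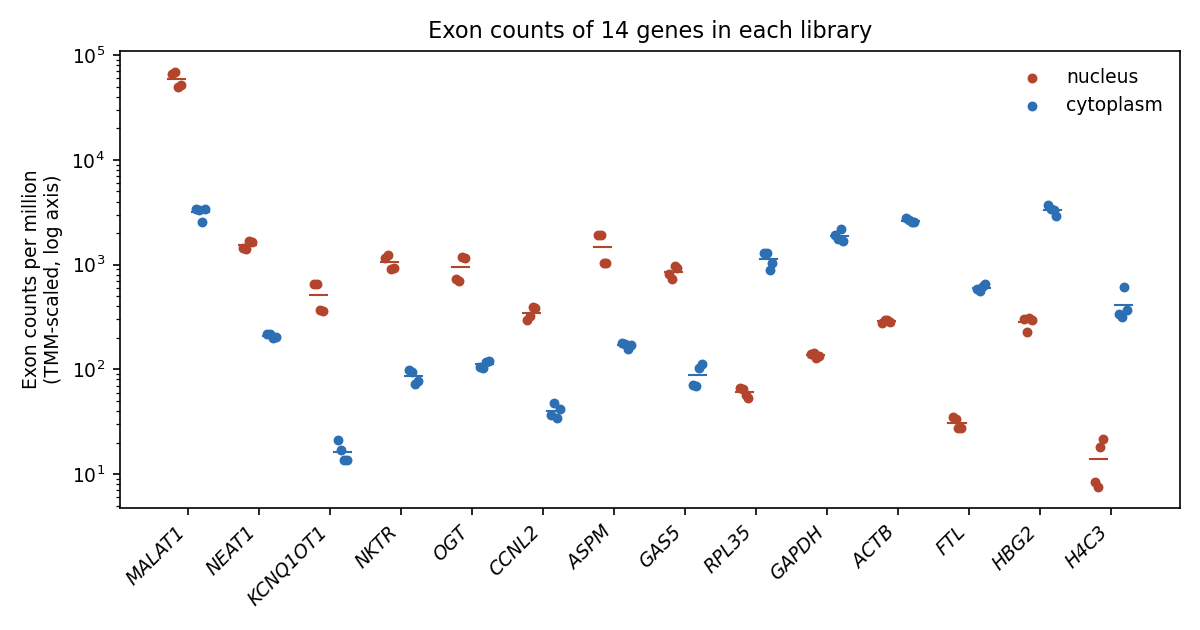
Exon CPM (TMM-scaled, log axis) of 14 genes in each of the 4 nucleus and 4 cytoplasm libraries; points are libraries and bars are group means. The first 8 genes were higher in every nucleus library and the last 6 in every cytoplasm library, and ASPM and KCNQ1OT1 were higher in nucleus libraries 1 and 2 than in 3 and 4.

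Small nuclear RNAs and the hosts of small nucleolar RNAs (snoRNAs) were more mixed. Of 14 rows for spliceosomal snRNAs and 7SK, 5 passed the filter and 4 were higher in the nucleus, with a median of 1.74. RNU4-1, the U4 snRNA, had 6.69, 7.18, 17.6 and 23.2 CPM in the nucleus and 1.78, 1.42, 4.97 and 3.11 CPM in the cytoplasm (2.23 ± 0.456). RNU5B-1, a U5 snRNA, had a log2 fold change of 2.69 ± 0.559. Both have near-identical copies, so their levels are uncertain. Of 26 listed snoRNA hosts 23 were tested, 12 were higher and 6 were lower. Their median of 0.96 turned to -0.53 over gene-body counts. GAS5, whose exons carry many stop codons and whose introns hold snoRNAs, had 807, 733, 961 and 919 CPM in the nucleus and 71.4, 68.8, 104 and 112 CPM in the cytoplasm (3.26 ± 0.203). SNHG12 was also higher (2.13 ± 0.292), whereas SNHG6 (-1.82 ± 0.215) and SNHG16 (-1.81 ± 0.132) were lower. Hosts of one RNA class thus stood on both sides of 0.

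By class of gene, long noncoding RNA genes took 12.96% ± 0.802 (SD, n = 4) of exon counts in the nucleus and 2.48% ± 0.0581 in the cytoplasm. Pseudogenes took 1.77% ± 0.0266 and 0.868% ± 0.0518, and small structured RNA genes 0.425% ± 0.0691 and 0.235% ± 0.0526, a difference that turned to -0.00132 percentage points over gene-body counts. Protein-coding genes with a single exon went the other way, at 0.412% ± 0.0144 in the nucleus and 0.982% ± 0.0229 in the cytoplasm. The mitochondrial rRNAs took 6.57% ± 2.12 and 20.8% ± 1.66. Each of these differences had an exact two-sided permutation p of 0.0286 (n = 4 and 4), or 0.0321 after Benjamini-Hochberg adjustment over 9 shares. When libraries were paired by number, the exact paired permutation p was 0.125 for each of them and for MALAT1. That is the smallest that 4 pairs allow, so none passed in the paired form. The share of all protein-coding genes of the nuclear genome did not pass (75.3% ± 2.41 and 71.8% ± 2.17, exact p = 0.0857), and the sign of its difference turned to -12.9 percentage points when mitochondrial and rRNA genes were left out.

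The median of some biotypes changed sign when genes that overlap others were left out. lincRNAs had a median log2 fold change of 2.07 over 634 genes and of 1.77 over the 224 that overlap no other annotated gene. snoRNAs stood at 3.42 over 80 genes, of which 78 were higher. Processed pseudogenes, reverse-transcribed copies of mRNAs, had a median of 1.77 over 989 genes, but of -1.44 over the 281 that overlap no other gene. Small RNAs of the miscellaneous class changed likewise, from 3.17 over 104 genes to -3.34 over 12. The part that counts from the overlapped genes have in these medians was not tested.

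Among mRNAs the exon counts spread widely around 0. The median log2 fold change of 11297 protein-coding genes was -0.28, with quartiles of -1.18 and 0.65. Of these genes 29.3% were higher in the nucleus and 45.2% were lower. In all, 6266 of 15940 genes were higher in the nucleus and 5970 were lower, 76.8% of those tested. Higher genes made up 51.2% of calls under TMM, 69.3% with library size alone and 34.7% when libraries were scaled to the yeast spike-ins. With library size alone, 3762 of the 5970 lower genes kept their call and 58 were called higher. The median of all genes was 0.63 with library size alone and -0.60 with spike-in scaling, so every exon fold here is relative to a midpoint that these scalings move. Within prefix 1 there were 5811 higher and 5461 lower genes, and within prefix 2 6417 and 5863. The fold differed between the prefixes for 68 of 15940 genes by an interaction test in edgeR (adjusted p under 0.05), a test added after the data were seen.

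Intronic counts, taken as gene-body counts less exon counts, moved almost as one. Of 14242 genes tested, 13481 (94.7%) were higher in the nucleus and 301 (2.11%) were lower. The median log2 fold change of 9360 protein-coding genes was 3.82, with quartiles of 3.26 and 4.28. On the same 9360 genes the exon folds were spread more widely, with an interquartile range of 1.75 against 1.02. These counts were scaled by the exon libraries. When the intronic counts were centred on themselves instead, the calls split into 3398 higher and 3507 lower, since that scaling sets the typical intron to no change. Across protein-coding genes the exon fold and the intronic fold were weakly related (Spearman's rho 0.15, over genes that share libraries and are not independent).

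**Figure D2:**
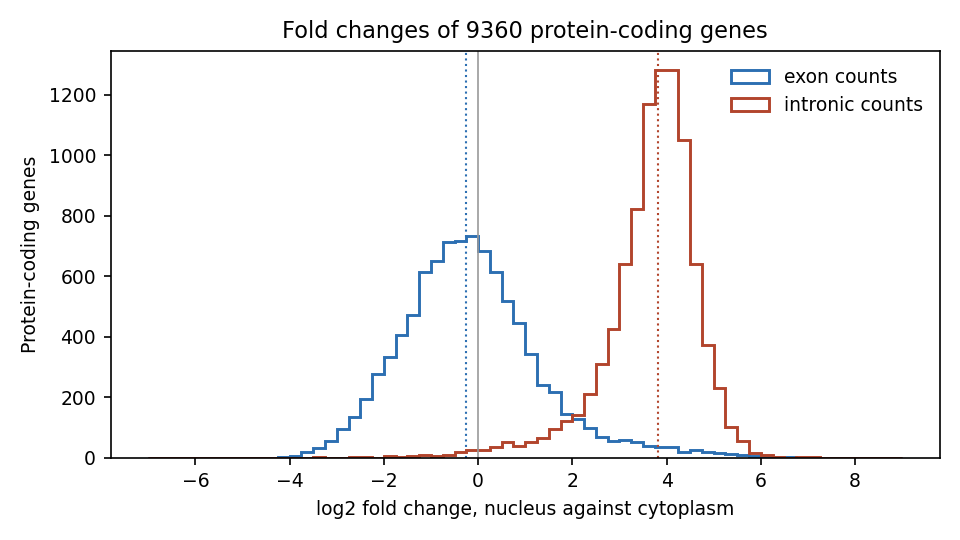
Histogram of log2 fold changes, nucleus against cytoplasm, of exon counts and intronic counts for the 9360 protein-coding genes tested on both; dotted lines are medians. Exon folds are centred near 0 and intronic folds near 3.82, with a narrower spread.

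Within single libraries the contrast was as plain. For protein-coding genes, 75.6%, 75.2%, 72.0% and 71.7% of all counts in gene bodies were intronic in nucleus libraries 1 to 4. In cytoplasm libraries 1 to 4 the values were 14.5%, 14.8%, 12.01% and 12.4% (exact permutation p = 0.0286, and 0.125 when paired by library number). Long noncoding RNA genes had 89.7% ± 1.80 in the nucleus and 67.5% ± 1.32 in the cytoplasm. Per base, the intronic density of the median mRNA was 39.5% ± 2.87 (SD, n = 4) of its exonic density in the nucleus and 2.21% ± 0.341 in the cytoplasm, over 8697 genes. The ratio of intronic to exonic counts, in which the scaling of libraries cancels, was higher in the nucleus for 9015 of 10031 genes (89.9%) and lower for 212 (2.11%), with a median log2 change of 4.07 over protein-coding genes.

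Among the 8697 mRNAs tested for this ratio, the nuclear intronic percentage was almost the same whichever way the exon counts went. These genes had to pass the low-count filter on intronic counts too. mRNAs with few intronic counts were thus left out, and the level of the medians holds only for this set. In mRNAs at least 2-fold lower in the nucleus, the median intronic percentage was 71.0% in the nucleus and 5.65% in the cytoplasm. In mRNAs at least 2-fold higher, the medians were 68.5% and 36.5%. The genes in between had nuclear medians of 70.2% to 72.5% and cytoplasmic medians that rose stepwise from 10.1% to 21.1%. Of the 8697 mRNAs, 1426 were at least 2-fold higher and 2460 at least 2-fold lower. Over all genes tested, of every biotype, the shares were 30.5% and 25.5%. Exon counts enter both the call and the percentage, so these medians are a description.

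**Figure D3:**
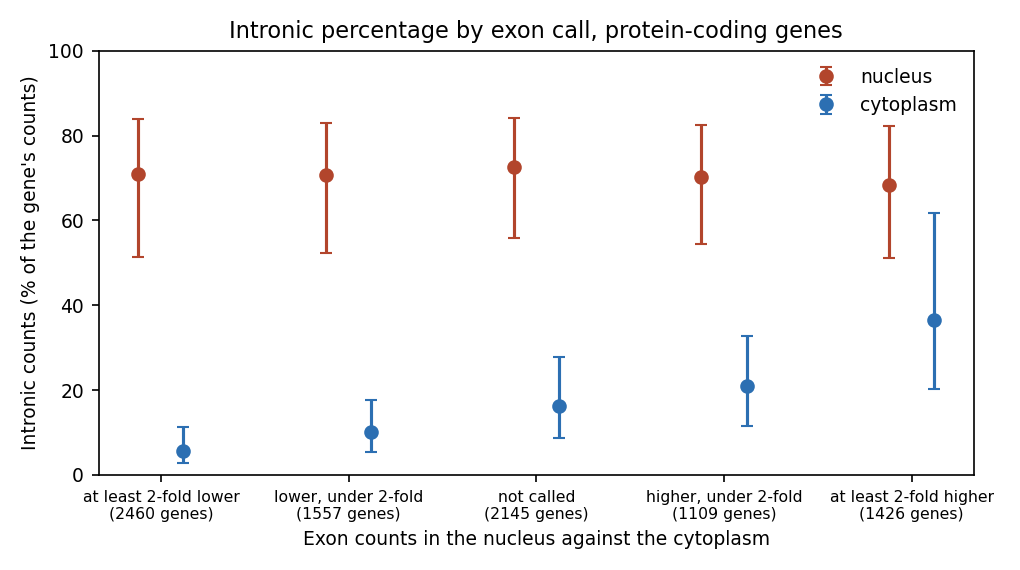
Median percentage of a gene's counts that were intronic, for each fraction, in 5 classes of exon call. Genes are protein-coding and passed the low-count filter on exon and intronic counts, and bars span the quartiles over genes. Nuclear medians stay between 68.5% and 72.5%, while cytoplasmic medians go from 5.65% in genes at least 2-fold lower to 36.5% in genes at least 2-fold higher.

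Exon folds differed with the structure of the gene. Protein-coding genes whose representative transcript has 1 exon had a median log2 fold change of -1.08, those with 2 to 5 exons -0.77, 6 to 10 exons -0.56, 11 to 20 exons -0.09 and 21 or more 0.44. Of 5 equal bins by transcript length, the shortest, 305 to 1823 bases, stood at -0.996 and the longest, 5417 to 101518 bases, at 0.13. The order of these bins was the same with spike-in scaling, where every exon bin stood below 0, with -0.19 for 21 or more exons. Within prefix 1 the exon bins ran from -1.16 to 0.51 and within prefix 2 from -1.05 to 0.38, in the same order. With intronic density taken off the exon counts, single-exon genes stood at -0.73, above genes with 2 to 5 exons (-1.26) and 6 to 10 exons (-0.98), so the order at the low end was not kept. For intronic folds, Spearman's rho across genes was 0.40 for intronic length, -0.37 for transcript GC content and 0.15 for the number of exons.

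**Figure D4:**
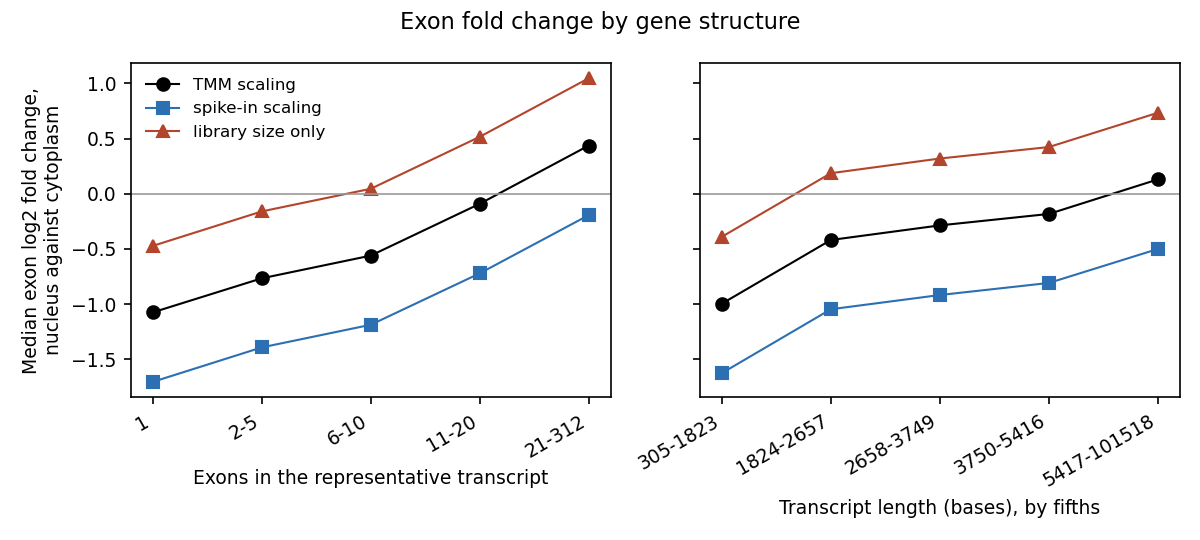
Median exon log2 fold change, nucleus against cytoplasm, of protein-coding genes by number of exons (left) and by 5 equal bins of transcript length in bases (right) under 3 scalings. The scalings shift the level but keep the rise from single-exon genes (-1.08 with TMM) to genes with 21 or more exons (0.44).

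Ribosomal protein mRNAs, which make the translation machinery itself, were among the most cytoplasmic. Of 79 genes, 76 were lower in the nucleus and 3 were higher, with a median of -2.82 that stayed below 0 under each scaling (-3.45 with spike-ins, -2.21 with library size alone). Most of them begin with a run of pyrimidines (C or T), the start element through which growth signals control their translation. The starts below, 10 bases before and 20 bases from the annotated first base in the RefSeq promoter table (GRCh38.p14), set 3 of them beside 3 mRNAs that were high in the nucleus. Capitals mark a run that starts with C at the first base and goes on for at least 4 more pyrimidines.
RPL35: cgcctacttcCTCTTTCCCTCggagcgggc
RPLP0: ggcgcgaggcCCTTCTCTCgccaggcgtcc
RPS3A: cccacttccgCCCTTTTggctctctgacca
NKTR: tgggggaggagacggcgttccgttagcggc
CCNL2: ccctgagggaagaagccgaaggggagtcgg
OGT: cgtcgccgccatttcaagaccgtactaggt
On GRCh38 these lie at chr9:124861938-124861967 (minus strand), chr12:120201092-120201121 (minus), chr4:151099618-151099647 (plus), chr3:42600676-42600705 (plus), chr1:1399316-1399345 (minus) and chrX:71533094-71533123 (plus). On the strand shown, such a run was found in 41 of 53 ribosomal protein genes with a single entry in the table (77.4%). Over all 35116 promoters it was found in 4.07%. Among other mRNAs with a single entry, it was found in 6.61% of 2981 that were lower in the nucleus. It was found in 4.14% of 1933 that were higher and 3.83% of 1646 not called.

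RPL35, a protein of the large subunit, had 66.9, 65.0, 56.8 and 53.7 CPM in the nucleus and 1296, 1296, 884 and 1047 CPM in the cytoplasm, a log2 fold change of -4.22 ± 0.211 (adjusted p = 3.77e-13, edgeR). RPS2, of the small subunit, had 62.7 to 97.1 CPM and 1066 to 1778 CPM (-4.15 ± 0.173), and its fold was larger in prefix 2 (-4.67) than in prefix 1 (-3.63, adjusted p of the difference 0.0101 in edgeR). Intronic counts summed over 65 ribosomal protein genes were 23.2% of all their counts in nucleus libraries (22.4% to 24.1% by library) and 2.29% in the cytoplasm (1.93% to 2.56%). RPL36A (3.29 ± 0.196) and RPL17 (1.38 ± 0.287) were among the 3 higher genes, and both overlap readthrough or neighbouring genes, so their exon counts are uncertain.

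Replication-dependent histone mRNAs are known to end in a stem-loop in place of a poly(A) tail, and the stem-loop binding protein takes them to export and translation. The stem-loops of 2 members are shown with the 2 strands of the stem in capitals. A match to the stem-loop was found in annotated transcripts of 31 of the 68 listed genes, 28 of them tested. It lay at bases 435 to 460 of 571 in H2BC4 and at bases 445 to 470 of 2194 in H2BC21, whose annotated transcript runs on past it.
H2BC4: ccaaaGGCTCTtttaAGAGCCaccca
H2BC21: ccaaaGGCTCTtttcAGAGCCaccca
Of 68 listed genes, 55 passed the filter, 51 were lower in the nucleus and 3 were higher, with a median of -3.06. H4C3, which encodes histone H4, had 8.47, 7.52, 18.1 and 21.7 CPM in the nucleus and 336, 319, 609 and 367 CPM in the cytoplasm (-4.88 ± 0.364). H2BC4 had 43.3 to 58.4 CPM and 375 to 582 CPM (-3.25 ± 0.156), and H2BC21 19.6 to 38.4 CPM and 206 to 268 CPM (-3.06 ± 0.223). H2BC6 was higher (2.69 ± 0.234), and its annotated span reaches over a neighbouring gene. Histone genes are near-identical copies of each other, so single members are uncertain.

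The abundant mRNAs of basic metabolism and the cytoskeleton stood with them. Of 17 glycolytic enzymes 15 were lower in the nucleus and none was higher (median -2.23), and of 25 genes for actin, tubulin and actin-binding proteins 24 were lower (median -2.57). GAPDH, an enzyme of glycolysis, had 139, 143, 128 and 134 CPM in the nucleus and 1910, 1769, 2177 and 1687 CPM in the cytoplasm (-3.79 ± 0.134), and ALDOA, the aldolase of glycolysis, changed by -3.12 ± 0.211. ACTB, beta-actin, had 280 to 298 CPM and 2527 to 2757 CPM (-3.19 ± 0.108), and the thymosin TMSB4X, which holds actin monomers, 24.5 to 31.6 CPM and 247 to 316 CPM (-3.31 ± 0.221). All 20 genes for the chaperonin, HSP70 and HSP90 were lower (median -1.74), among them CCT7 (-2.36 ± 0.120), and so were all 11 RNA polymerase II subunits tested (median -2.12), among them POLR2J (-2.47 ± 0.233).

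Proteasome subunits were lower in 28 of 31 cases (median -1.74), led by PSMB6, a catalytic subunit, at 1.37 to 3.79 CPM in the nucleus and 30.6 to 40.5 CPM in the cytoplasm (-3.71 ± 0.268). PSMA2 (2.42 ± 0.245) and PSMA1 (0.99 ± 0.126) were higher. Both overlap other genes, and PSMA1 had 496 to 1128 intronic CPM in the nucleus beside 46.5 to 62.9 exon CPM and was not called with spike-in scaling (0.35). Core spliceosome proteins were lower in 26 of 30 cases (median -1.44), with SF3B5 at -4.01 ± 0.235 and SNRPD3 at -2.98 ± 0.174. U2AF1 was higher (2.94 ± 0.336), at 6.71 to 14.7 CPM against 0.932 to 2.17 CPM, and its near-identical second copy in this assembly makes that value uncertain. Of 32 replication factors 23 were lower and 4 were higher (median -0.76), with PCNA, the sliding clamp, at -2.31 ± 0.136 and TYMS, the enzyme that makes thymidylate, at -2.32 ± 0.120.

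The opposite end held mRNAs known for detained introns. Of 23 such genes, 20 were higher in the nucleus and none was lower, with a median of 1.65 that stayed above 0 under each scaling (1.01 with spike-ins). NKTR, a cyclophilin with an SR-like domain, had 1146, 1234, 900 and 935 CPM in the nucleus and 99.4, 95.2, 72.9 and 77.4 CPM in the cytoplasm (3.61 ± 0.250, adjusted p = 4e-11 in edgeR). OGT, the enzyme that adds O-GlcNAc and that is tuned by its own detained intron, had 733, 697, 1186 and 1158 CPM against 106, 102, 118 and 121 CPM (3.08 ± 0.199). OGT was higher in nucleus libraries 3 and 4 than in 1 and 2, and the groups did not overlap. LUC7L, a U1 snRNP partner, had 125 to 140 CPM and 14.5 to 21.5 CPM (2.88 ± 0.157).

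SR protein kinases and speckle cyclins followed, with 10 of 14 higher and 1 lower (median 1.11). CCNL2, a cyclin of the speckles, had 293, 320, 390 and 387 CPM in the nucleus and 36.5, 48.0, 34.5 and 41.5 CPM in the cytoplasm (3.11 ± 0.135), and its relative CCNL1 had 331 to 394 CPM and 41.6 to 46.7 CPM (3.002 ± 0.138). The kinases CLK1 (2.47 ± 0.151) and CLK4 (2.39 ± 0.185), which phosphorylate SR proteins in the nucleus, were higher, and SRPK1 (-0.70 ± 0.123), which does so in the cytoplasm, was the lower member, though not called with library size alone (-0.10). Intronic counts of CCNL2 were 5.50% of its gene-body counts in the nucleus, and those of OGT 28.2% ± 1.77 (SD, n = 4), so most counts of these genes lay in exons of the annotation used.

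The SR proteins themselves were split, with 6 of 13 higher and 4 lower. Their median of 0.20 turned to -0.46 with spike-in scaling. SRSF4 (1.63 ± 0.134) and SRSF11 (1.30 ± 0.156) were higher and SRSF9 (-1.10 ± 0.109) was lower. Of 22 hnRNP proteins, 15 were lower and 2 were higher (median -0.97). HNRNPAB was at -2.32 ± 0.137, and HNRNPH1, at 474 to 649 CPM against 207 to 261 CPM, was one of the 2 higher (1.23 ± 0.166).

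Factors that export, mark and degrade mRNA had members on both sides of 0. Protein-coding genes at large did too, with 29.3% higher and 45.2% lower. mRNA export factors counted 8 higher and 10 lower of 21 (median -0.12, and 0.48 with library size alone). RNA decay factors counted 11 and 15 of 33 (median -0.19, and 0.41 with library size alone), and m6A factors 6 and 8 of 15 (median -0.32, and 0.28 with library size alone). METTL3, the m6A writer, had 95.5 to 113 CPM in the nucleus and 28.9 to 38.1 CPM in the cytoplasm (1.70 ± 0.123), while the eraser ALKBH5 had 7.18 to 10.3 CPM and 87.2 to 98.3 CPM (-3.38 ± 0.183). Among export factors, THOC7 of the THO complex was lower (-2.67 ± 0.164), and SARNP (3.38 ± 0.325) and DDX39B (2.87 ± 0.163), both of which overlap other genes, were higher. Among decay factors, the deadenylase PAN2 was higher (1.64 ± 0.206), as was UPF3A of nonsense-mediated decay (1.33 ± 0.143), and the deadenylase CNOT7 was lower (-1.65 ± 0.132).

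Genes for large chromatin proteins were more often higher than lower. DNA repair factors were close to the shares over all genes tested (39.3% higher and 37.5% lower). Protein-coding genes alone had 29.3% higher and 45.2% lower, so repair factors were higher more often than these. Of 36 histone methyltransferases and remodellers, 24 were higher and 5 were lower, and their median of 0.56 turned to -0.09 with spike-in scaling. KMT2A had 674, 735, 659 and 631 CPM in the nucleus and 178, 173, 183 and 178 CPM in the cytoplasm (1.92 ± 0.130), and CHD6 was at 1.91 ± 0.116, while SMARCA4, the BRG1 ATPase, was at -1.17 ± 0.151. Of 31 DNA repair factors 13 were higher and 11 were lower (median 0.10, turning to -0.54 with spike-ins). FANCA had 151 to 152 CPM in every nucleus library and 38.7 to 45.2 CPM in the cytoplasm (1.84 ± 0.116), the kinase ATM was at 1.93 ± 0.211, and XRCC6, the Ku70 subunit, at -1.77 ± 0.134. KRAB zinc finger genes, a large family of repressors, counted 44 higher and 11 lower of 79 tested (median 0.51, and -0.14 with spike-ins). ZNF782 was at 2.27 ± 0.171 and ZNF689 at -2.12 ± 0.220.

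Mitotic regulators showed both ends within one program, with 5 higher and 14 lower of 28 tested. ASPM, a spindle-pole protein encoded by a representative transcript of 10887 bases, had 1933, 1937, 1033 and 1029 CPM in the nucleus and 179, 175, 155 and 170 CPM in the cytoplasm (3.13 ± 0.346). Its fold was 3.44 within prefix 1 and 2.67 within prefix 2, a difference of -0.78 (adjusted p = 0.0339, edgeR interaction). The kinesin CENPE was at 1.49 ± 0.280, with 1.80 and 1.05 within the prefixes. PTTG1, securin, had 33.8 to 45.04 CPM and 215 to 259 CPM (-2.68 ± 0.136). Among nuclear pore genes (3 higher and 19 lower of 29, median -0.52, and 0.08 with library size alone), TPR of the nuclear basket was higher (1.01 ± 0.257), with 1.36 and 0.59 within the prefixes, and was not called with spike-in scaling (0.36). The Mediator list counted 2 higher and 20 lower of 32 (median -0.74), with MED23 the larger of the 2 rises (1.16 ± 0.156).

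**Figure D5:**
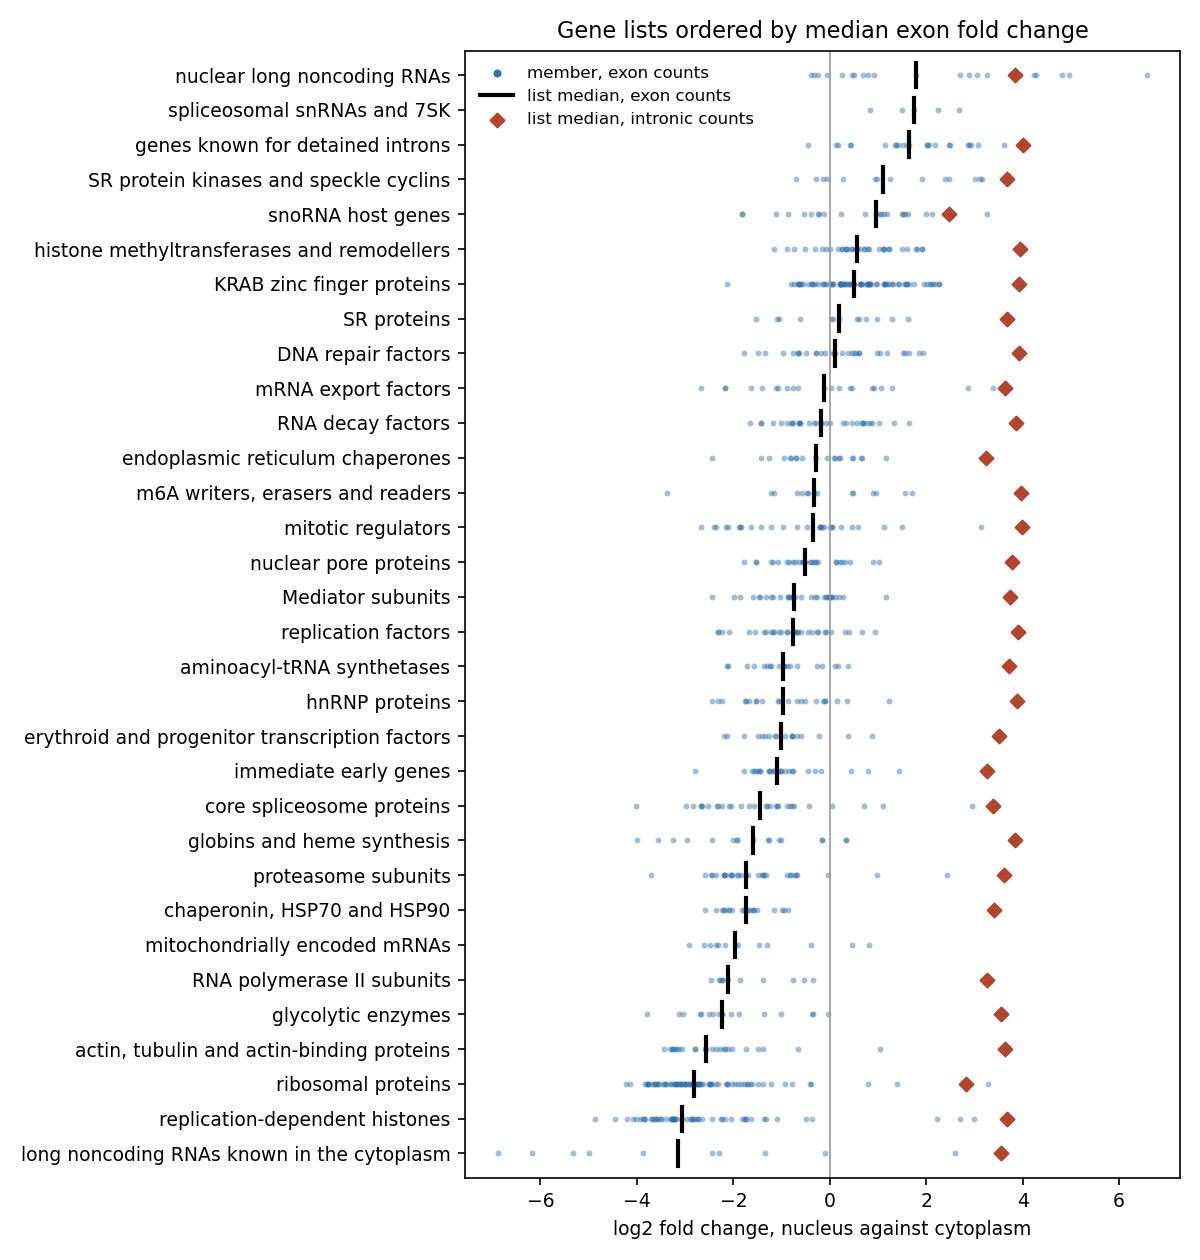
Log2 fold changes, nucleus against cytoplasm, of the tested members of 32 gene lists (points, exon counts), with the median exon fold (bars) and, where at least 3 genes were tested, the median intronic fold (diamonds). Exon medians run from -3.16 to 1.78, while intronic medians lie between 2.47 and 4.01 in every list drawn.

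K562 identity genes were mostly cytoplasmic. Of 19 globin and heme synthesis genes 17 were tested, 12 were lower in the nucleus and none was higher (median -1.60). HBG2, a foetal globin whose annotated span overlaps its cluster and is therefore uncertain, had 305, 225, 312 and 294 CPM in the nucleus and 3732, 3380, 3356 and 2928 CPM in the cytoplasm (-3.56 ± 0.197). HBA2, which shares most of its sequence with HBA1, had 0.342 to 3.61 CPM and 16.5 to 53.0 CPM (-4.01 ± 0.627). Of 18 erythroid and progenitor transcription factors tested, 15 were lower and 2 were higher (median -1.02). GATA1, the master regulator of the lineage, had 28.5, 27.7, 30.3 and 33.0 CPM in the nucleus and 143, 146, 134 and 101 CPM in the cytoplasm (-2.13 ± 0.145), and KLF1 was at -2.19 ± 0.219. MYB was at 0.38 ± 0.0969, which turned to -0.25 with spike-in scaling, and RUNX1, which overlaps other genes, was at 0.88 ± 0.313 and was not called with spike-in scaling (0.31) or without cytoplasm library 1 or 2 or nucleus library 3 (0.68 to 0.75). Immediate early genes, whose mRNAs are short-lived, counted 1 higher and 19 lower of 26 tested (median -1.10), with JUND at -2.80 ± 0.161.

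mRNAs for proteins of the secretory pathway and mRNAs encoded in mitochondria were also listed. Endoplasmic reticulum chaperones counted 5 higher and 11 lower of 21 (median -0.28, and 0.32 with library size alone). HSP90B1 had 785 to 1069 CPM in the nucleus and 541 to 651 CPM in the cytoplasm (0.67 ± 0.162), but its fold was 0.03 and did not pass with spike-in scaling. HSPA5, or BiP, was at 0.48 ± 0.159, which turned to -0.12 with that scaling and was not called without cytoplasm library 2 (0.37). SIL1 was at 1.17 ± 0.166 and SDF2L1 at -2.45 ± 0.232. Of 13 mitochondrially encoded mRNAs 10 were lower in the nucleus and 2 were higher (median -1.96). MT-CO1 had 3402, 1662, 2295 and 2229 CPM in the nucleus and 11552, 12162, 12695 and 11432 CPM in the cytoplasm (-2.32 ± 0.173), with the highest nuclear value in library 1. MT-ND3 was at 0.81 ± 0.178, but at 1.43 and 0.24 within the prefixes and at 0.19, not called, with spike-in scaling. MT-ND6, the only mitochondrial mRNA read from the other strand, was at 0.46 ± 0.172, turned to -0.16 with spike-in scaling, and lost its call without cytoplasm library 1 (0.32), cytoplasm library 2 (0.39) or nucleus library 1 (0.35). It stood at 723 to 1027 CPM in the nucleus and 422 to 747 CPM in the cytoplasm, and the groups overlapped.

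Across the lists the intronic median lay between 2.47 and 4.01, whatever the exons did. The intronic medians were 2.82 for ribosomal proteins, 3.56 for glycolytic enzymes, 3.50 for erythroid factors and 4.01 for genes known for detained introns. In the last list the ratio of intronic to exonic counts rose by a median of 2.42, against 4.07 over protein-coding genes. Its summed intronic percentage in the nucleus was 27.2%, against 73.6% for protein-coding genes. Intronic counts of GATA1 were 82.4% ± 3.6 (SD, n = 4) of its counts in the nucleus and 6.17% ± 0.818 in the cytoplasm, while its exon counts fell by 2.13 on the log2 scale.

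Genes that overlap no other annotated gene gave the clearest single cases. OR2B2, a single-exon olfactory receptor gene, had 44.1, 59.5, 32.7 and 36.6 CPM in the nucleus and 0.395, 0.285, 0.585 and 0.777 CPM in the cytoplasm (6.33 ± 0.278). The lincRNA LINC01355 had 69.2 to 77.9 CPM and 0.878 to 2.85 CPM (5.41 ± 0.302), and the unnamed lincRNA ENSG00000274422 95.7 to 223 CPM and 1.28 to 2.49 CPM (6.43 ± 0.405). Among spliced mRNAs, ANKRD36 had 335, 330, 180 and 173 CPM in the nucleus and 7.46 to 10.1 CPM in the cytoplasm (4.81 ± 0.271), and GPM6B (4.94 ± 0.390) and PRSS12 (4.81 ± 0.572) stood with it at lower levels. At the other end FTL, the light chain of the iron store ferritin, had 35.2, 33.8, 27.6 and 27.4 CPM in the nucleus and 579, 561.6, 618 and 654 CPM in the cytoplasm (-4.28 ± 0.137). The pseudogenes RPL13P12 (-5.56 ± 0.329) and RPS3AP5 (-4.86 ± 0.320) stood there too, and as near-identical copies of other genes' mRNAs their counts are uncertain.

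Among genes that overlap no other, the 8 with the largest rise in the ratio of intronic to exonic counts had representative transcripts of 659 to 4384 bases. Across protein-coding genes the ratio change was nearly unrelated to transcript length (Spearman's rho -0.0966, a description over genes). HMGN2, a nucleosome-binding protein, had 15.2, 19.8, 15.7 and 18.1 intronic CPM in the nucleus and 0, 0.142, 0.293 and 0 in the cytoplasm, while its exon counts were lower in the nucleus (-2.54 ± 0.143). Its log2 change in the ratio was 9.45 ± 0.399 and rests on almost no intronic counts in the cytoplasm. MZT1, of the gamma-tubulin ring, had 44.1 to 66.3 intronic CPM in the nucleus and 2.02 to 2.71 in the cytoplasm, against 8.26 to 10.7 and 77.3 to 99.0 exon CPM, a ratio change of 7.70 ± 0.237. CHMP4B (7.79 ± 0.270), LBH (7.86 ± 0.419), DAD1 (7.59 ± 0.279), UBL3 (7.56 ± 0.458) and H2BC4 (7.62 ± 0.234) had ratio changes of like size.

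In a different set, exon counts were high in the nucleus with almost no intronic counts. It was drawn from 214 mRNAs that overlap no other gene and were at least 2-fold higher at 10 CPM or more, as the 8 with the lowest nuclear intronic percentage. GIGYF1, a translation repressor with 24 exons in its representative transcript, had 167, 179, 181 and 179 CPM in the nucleus and 48.1, 56.4, 50.5 and 49.1 CPM in the cytoplasm (1.79 ± 0.123), with an intronic percentage of 2.46% ± 0.855 in the nucleus. SAT1, the polyamine acetyltransferase, had 74.3 to 93.0 CPM and 16.5 to 25.9 CPM (2.02 ± 0.142) with 2.77%. FASTK (2.30 ± 0.149) had 2.93% and DMAP1 (2.01 ± 0.162) 2.58%. CREBZF had 127 to 144 CPM and 32.3 to 39.5 CPM (1.93 ± 0.164) with 0.260%, and EPM2AIP1, which has 1 exon, 185 to 221 CPM and 53.1 to 71.7 CPM (1.72 ± 0.172). An intron that any annotated transcript includes as exon counts as exonic here.

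Intronic counts in the cytoplasm were led by a few genes. LINC02476 had 12492, 12165, 5868 and 6157 intronic CPM in the nucleus and 213, 186, 143 and 165 in the cytoplasm, the highest cytoplasmic value among genes that overlap no other. PICALM, a clathrin adaptor, had 1847 to 2328 intronic CPM in the nucleus and 80.0 to 105 in the cytoplasm, and VWDE 1529 to 2556 and 63.3 to 82.2. XKR3 had 412 to 719 and 70.2 to 109. H2AZ2, a histone variant gene, stood out, with 140, 122, 131 and 125 intronic CPM in the nucleus and 111, 108, 103 and 98.0 in the cytoplasm. Its intronic log2 fold change was 0.31 ± 0.165 (adjusted p = 0.0788, edgeR) and turned to -0.33 with spike-in scaling. LINC00958 was intermediate, at 1.87 ± 0.257.

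The 301 genes with fewer intronic counts in the nucleus lay mostly over another gene. Of them, 293 (97.3%) overlapped another annotated gene, against 74.8% of all genes tested, and 263 (87.4%) lay over a gene on the opposite strand whose exon counts were lower in the nucleus, against 17.4%. KLHDC8A had 267, 323, 201 and 260 intronic CPM in cytoplasm libraries 1 to 4, and the opposite-strand SNRPGP10 had 267, 323, 201 and 260 exon CPM. CAND2 had 1451 to 1592 intronic CPM beside 1437 to 1580 exon CPM of RPL32. In 56 of the 263 genes the intronic CPM was within 10% of the opposite gene's exon CPM in all 4 cytoplasm libraries, as in these examples. Over the 263 genes, cytoplasmic intronic CPM had a median of 55.2% of the opposite gene's exon CPM. The quartiles were 20.2% and 99.8%, so most pairs did not match this closely. The strand setting of the counting is not given in the sources used here, and intronic counts of overlapping genes are uncertain for that reason.

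Only 8 of the 301 genes overlapped no other gene. SF3B4, a spliceosome protein, had 11.9 to 15.2 intronic CPM in the nucleus and 14.1 to 28.4 in the cytoplasm (-0.66), where the groups overlapped, and its call was lost without cytoplasm library 2 (-0.48). HJV had 13.8 and 14.5 intronic CPM in cytoplasm libraries 1 and 2 but 1.32 and 2.49 in 3 and 4, its call was lost without cytoplasm library 2 (-1.44), and its sign turned within prefix 2 (0.63). Among isolated genes tested for the ratio of intronic to exonic counts, 5 were lower in the nucleus and 2600 higher. CYP3A5 (-0.98 ± 0.331) and OPN1SW (-0.82 ± 0.347) were the lower members with enough counts to name, and the call of CYP3A5 was lost within prefix 1 (-0.32) and that of OPN1SW within prefix 2 (-0.38) and without any one of 5 libraries (-0.80 to -0.68).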

How the data were processed

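RNA-seq counts per gene from 4 nucleus and 4 cytoplasm libraries of K562 were compared. Per the submitters' processing notes, the authors used cutadapt 2.5, STAR 2.7.0a and featureCounts 1.6.2 with hg38. The deposited values are unnormalized whole-number counts over exons and over gene bodies; the strand setting, the annotation and the treatment of multi-mapped reads were not found in those notes or the file headers. Exon counts of 16 libraries were filtered (filterByExpr), TMM-scaled and fitted in edgeR 4.0.16 (R 4.3.3) by quasi-likelihood, with Benjamini-Hochberg adjustment at 0.05 over all human genes tested. The 3 undepleted wash libraries were not used. Intronic counts were gene-body less exon counts for genes with introns in GENCODE 29 and no negative difference, scaled by the exon libraries. The ratio of intronic to exonic counts was fitted on 8 libraries with a term for each library. Shares were compared by exact two-sided permutation tests. Standard errors were taken from the fold and its F statistic.

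Members and lists were chosen with earlier results of these data known. Named genes were those with the largest called changes that overlap no other gene, up to 2 per direction in each list, those with the lowest nuclear intronic percentage or the highest cytoplasmic intronic counts, and fixed landmarks. The fit was tested on simulated data. Same-numbered libraries deviated together (correlations of 0.176, 0.168, 0.232 and 0.126), but libraries of the other number with the same prefix did so too (0.132 to 0.210). DESeq2 1.42.0, limma 3.58.1, other scalings, filters, gene-body counts, a replicate block, single prefixes and leaving out each library were tried. Counting error alone does not describe the spread of libraries, and nuclear values rest on fewer exon counts than cytoplasmic ones.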

Additional observations from a re-analysis of the deposited data

Results flagged for a closer look

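Among 274 groups of 4 libraries looked at, 14 had 1 library far from the other 3, and chance gives such a gap in about 1 in 20 groups. Cytoplasm library 3 stood apart in 6 of them. There, pseudogenes took 0.945% of exon counts against 0.834% to 0.852% in the other cytoplasm libraries. The histone gene H4C3 stood at 609 CPM against 319 to 367, and FASTK at 11.3 CPM against 8.88 to 9.16. In the same library MALAT1 was low, at 2532 CPM against 3313 to 3373, as were HNRNPH1, at 207 CPM against 254 to 261, and PTTG1, at 215 CPM against 255 to 259. Nucleus library 1 was high for 2 mitochondrial mRNAs, MT-CO2 (542 CPM against 250 to 283) and MT-ND6 (1027 CPM against 723 to 756), and for PSMA2 (25.9 CPM against 18.7 to 19.1). Nucleus library 4 was low for SRSF9 (53.2 CPM against 68.2 to 71.1), METTL3 (95.5 CPM against 111 to 113), LUC7L (125 CPM against 138 to 140) and the intronic counts of OPN1SW (6.19 CPM against 9.23 to 9.74). Nucleus library 3 was low for CLK4, at 67.1 CPM against 84.3 to 87.2.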

How the results depend on the processing

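With library size alone 3762 genes were lower by exon counts, with no filter 10006 were higher, and among genes that overlap no other the counts were 1562 higher and 1576 lower, as fewer genes were tested. Intronic calls were 3398 higher and 3507 lower when centred on themselves, 468 lower with spike-ins, and 3555 and 8 among isolated genes. Lower ratios numbered 369 with no filter, and isolated genes gave 2600 higher and 5 lower. Leaving out each library gave 6327 to 6632 higher and 5740 to 6008 lower exon calls, 13526 to 13891 and 283 to 297 intronic calls, and 8919 to 9314 and 182 to 235 ratio calls.

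The difference in the protein-coding share, in percentage points, was 10.9 over gene bodies and -12.9 without mitochondrial and rRNA genes, and that of small structured RNAs -0.00132 and 0.152. With the replicate block the paired exact p cannot go below 0.125, and the differences were -0.570 for single-exon genes, 10.5 for long noncoding RNAs, 7.57 for MALAT1, 0.898 for pseudogenes, 0.191 for small structured RNAs, -14.3 for mitochondrial rRNAs, 60.2 for the intronic share of mRNAs and 22.2 for that of long noncoding RNAs. The block moved no count of calls by over 1.5 times (6491 higher and 6224 lower by exon counts). Without single libraries the exact p cannot go below 0.0571, and these differences ranged, in the same order, from -0.580 to -0.563, 10.1 to 10.7, 7.19 to 7.86, 0.886 to 0.924, 0.170 to 0.212, -15.3 to -13.6, 59.6 to 60.9 and 21.6 to 22.7, with 2.64 to 4.73 for protein-coding genes.

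Signs turned with spike-ins for MT-ND6 (-0.16), MYB (-0.25), HSPA5 (-0.12) and the introns of H2AZ2 (-0.33), and over gene bodies for MT-ND3 (-0.69), MT-ND6 (-1.04), HSP90B1 (-0.67) and HSPA5 (-0.96). Intronic folds centred on themselves turned for LINC00958 (-1.84), H2AZ2 (-3.40) and XKR3 (-1.01), and HJV turned within prefix 2 (0.63). List medians turned with spike-ins for SR proteins (-0.46), methyltransferases and remodellers (-0.0857), repair (-0.54) and KRAB genes (-0.14). With library size alone they turned for export (0.48), decay (0.41), m6A (0.28), pores (0.0798), mitotic regulators (0.27) and endoplasmic reticulum chaperones (0.32). Over gene bodies they turned for SR proteins (-0.98), m6A (0.13), repair (-0.17) and snoRNA hosts (-0.53). Among isolated genes they turned for decay (0.20), m6A (0.83) and pores (0.0905). Export also turned with DESeq2 (0.0196), with edgeR's RLE (0.0194) and without nucleus library 4 (0.0114, the highest of its values without 1 library, the lowest being -0.200), and repair turned with no filter (-0.0530), as did chaperones with intronic density taken off (0.26). Causes were not tested.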
